A study of Mus musculus with 35 samples.

Results

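Mouse genes with a Zfp symbol encode zinc finger proteins, and 207 of them were followed here through the conversion of ES cells into primitive endoderm (PrE) by GATA6. The members were the genes whose symbol is Zfp followed by a number, Zfp42 excepted, and whose mean over the 3 libraries of untreated cells was at least 5 TPM (a level corrected for transcript length and scaled to all transcripts of a library). Members were thus selected on their measured level at 0 h. They were 207 of 374 Zfp genes and of 44853 genes in the table, and the other 167 Zfp genes lay under the minimum. The cells were KH2 ES cells (C57BL/6 x 129/Sv), an established line, carrying a Dox-inducible Gata6 transgene. They were grown with LIF on inactivated fibroblast feeders, which were reduced by adsorption to plastic before lysis, and the methods describe picked clones of this line. RNA came from untreated cells (0 h) and from cells given 1 µg/mL Dox for 16, 24, 48, 72, 96 or 168 h, with 3 libraries each, and from 2 libraries of wild-type X10 XEN cells (CD1), an extraembryonic endoderm line grown on feeders without LIF or Dox. In a second experiment, the Gata6 cells were nucleofected with control siRNA (siCTL) or Oct4 siRNA (siOct4) and kept in 1 µg/mL Dox for 48 h, with 6 libraries each. Cell type, strain and the absence of LIF and of the transgene cannot be told apart in a comparison with XEN cells. Against Dox-treated cells, the absence of Dox adds to these.

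Most mouse Zfp proteins carry arrays of C2H2 fingers, in which a pair of cysteines and a pair of histidines hold a zinc ion and each finger reads a few bases of DNA. Many also carry a KRAB box near the amino terminus, which recruits TRIM28 (KAP1) and, through it, the histone methyltransferase SETDB1 and HP1 proteins. In ES cells this machinery silences retroelements and, through ZFP57 and ZFP445, protects imprinted methylation. KRAB genes arise by tandem duplication and often lie side by side. Of the 205 members with a coding transcript, 108 matched a KRAB-box pattern in the translated sequence and 97 did not, and 200 held at least 1 C2H2 finger, with a median of 10 and a maximum of 36. Zfp125 and Zfp640 are annotated as pseudogenes.

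Marker genes followed the labels. Gata6 rose from 0.264 TPM without Dox to 344 TPM after 168 h (means, n = 3), while the summed level of 8 ES markers went from between 3498 and 3645 TPM to between 91.9 and 167 TPM. In XEN cells these summed to between 17.2 and 19.9 TPM, and 12 PrE markers to between 15315.5 and 15453 TPM, beside 144 to 236 TPM without Dox. Libraries of a group correlated with r between 0.970 and 0.993 across genes in the induction series and between 0.929 and 0.990 in the siRNA series, where siCTL library 3 lay low for several members. The deposited TPM values hold no depth, so counting error is unknown. These are bulk libraries, in which fewer cells of a type and less RNA per cell cannot be told apart.

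At 0 h the members ranged from 5.11 to 356 TPM, with a median of 12.7, and 69 of them reached 20 TPM. The highest were Zfp57 (356 TPM), Zfp207 (181 TPM), Zfp106 (159 TPM), Zfp979 (130 TPM), Zfp428 (121 TPM) and Zfp978 (72.6 TPM). Just inside the minimum lay Zfp747 (5.11 TPM), Zfp446 (5.19 TPM) and Zfp395 (5.33 TPM), and just outside it Zfp949 (4.99 TPM), Zfp606 (4.98 TPM) and Zfp52 (4.97 TPM). Because the 0 h libraries chose the members, every contrast with 0 h is a description. Between 0 and 168 h, 17 members were higher and 50 lower past the thresholds used below, where 22.6% and 16.5% of all 15057 genes tested were. The median member level was 12.7 TPM without Dox, 10.2 TPM after 48 h, 10.01 TPM after 168 h and 8.96 TPM in XEN cells. The group with the highest mean was 0 h for 86 members and 168 h for 58, whereas the group with the lowest was XEN for 95.

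The loss and gain of members along the induction was tested between 16 and 168 h, libraries that the choice did not use. A gene was called when limma's moderated test, adjusted by Benjamini-Hochberg over all genes tested, gave an adjusted p under 0.05 and the difference in log2(TPM + 1) was at least 1. By this rule 40 members were lower and 16 higher at 168 h, that is 19.3% and 7.73% of 207, beside 15.6% and 20.2% of all genes tested. Among all 9514 genes at 5 TPM or more at 0 h, 17.8% were lower and 17.7% higher, and read against these the share of members that fell is near the background and the share that rose lies under it. After median-of-ratios rescaling the split was 48 lower and 9 higher. The median difference was -0.06 over the members and 0.07 over all genes tested. The members split by protein type: of the 108 with a KRAB-box match, 31 fell and 4 rose (median difference -0.36), and of the 97 without, 8 fell and 12 rose (median difference 0.24). Whether the types differ was not tested, and 16 of the 31 falling KRAB genes are neighbours on chromosome 4.

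**Figure D1:**
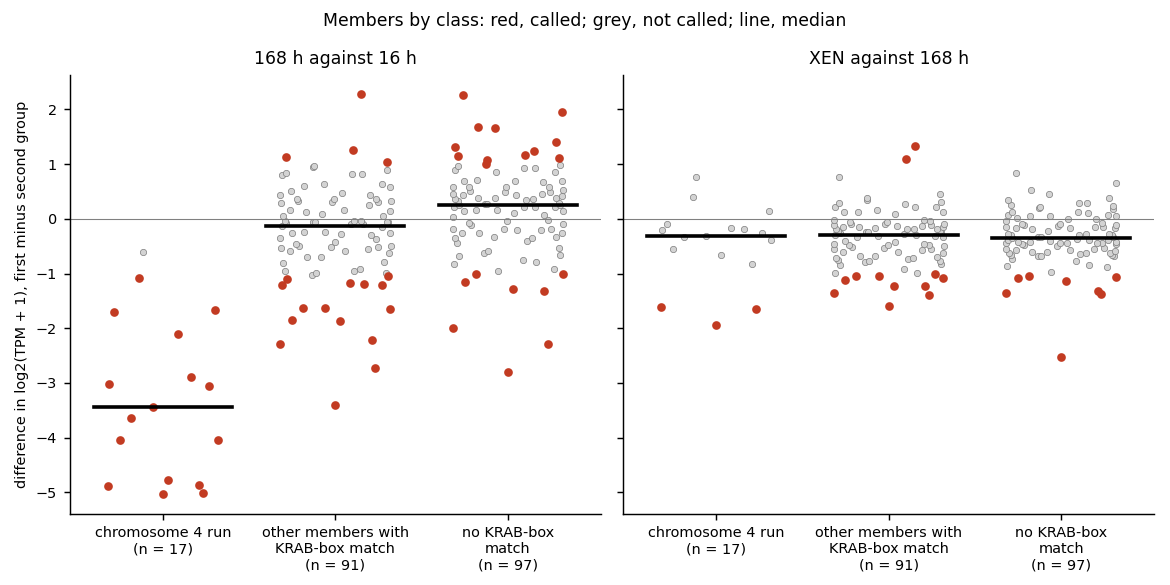
Difference in log2(TPM + 1) of each member with a coding transcript between 168 h and 16 h of Dox (left) and between XEN cells and 168 h (right), by class. Each point is 1 gene, red where called, and the black line is the class median. The 2 pseudogenes are not drawn. In the left panel the chromosome 4 run has a median of -3.44 and ranges from -5.02 to -0.60. It overlaps the other KRAB-box members, which reach down to -3.40. In the right panel the 3 classes have medians of -0.32, -0.30 and -0.35.

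Members less than 1 Mb apart were joined into runs, a rule set after values were seen, and 83 members fell into 10 runs of at least 5. The largest spans chr4:145510759-147809788 (GRCm38) and holds 17 members, all with a KRAB-box match. They were Zfp990, Zfp980, Zfp986, Zfp987, Zfp600, Zfp992, Zfp981, Zfp993, Zfp989, Zfp991, Zfp988, Zfp978, Zfp982, Zfp985, Zfp979, Zfp534 and Zfp984. Between 16 and 168 h, 16 of the 17 fell and none rose, with differences from -5.02 to -0.60 and a median of -3.44.

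Zfp980 was at 52.1, 54.2 and 46.7 TPM at 16 h and at 0.417, 0.599 and 0.801 TPM at 168 h (difference -5.02 ± 0.11 SE, limma adjusted p = 4.4e-17). Zfp534 stood at 42.8, 45.8 and 38.2 TPM at 16 h and at 0.224, 0.254 and 0.588 TPM at 168 h (difference -5.00 ± 0.13 SE). Zfp987 went from 54.3, 69.1 and 50.9 TPM to 1.13, 1.24 and 0.659 TPM (difference -4.88 ± 0.15 SE). In all 3 genes the groups were far from overlapping, and each 168 h library was near or under 1 TPM. The other named falls were those of Zfp978 (-4.86), Zfp988 (-4.78) and Zfp985 (-4.04). Zfp979, the most abundant gene of the run, was at 118, 123 and 113 TPM at 16 h, at 10.2, 9.78 and 9.92 TPM at 168 h and at 11.7 and 10.5 TPM in XEN cells, so that it fell without being lost. Zfp984 kept the highest level of the run at 168 h, 12.8 ± 0.885 TPM (SD, n = 3), after 43.9 ± 3.04 TPM at 16 h. Zfp982 was the exception, with 10.5, 12.8 and 10.7 TPM at 16 h and 6.41, 6.70 and 8.33 TPM at 168 h; its groups did not overlap, but its difference of -0.60 ± 0.16 SE missed the fold minimum (limma adjusted p = 0.00175).

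**Figure D2:**
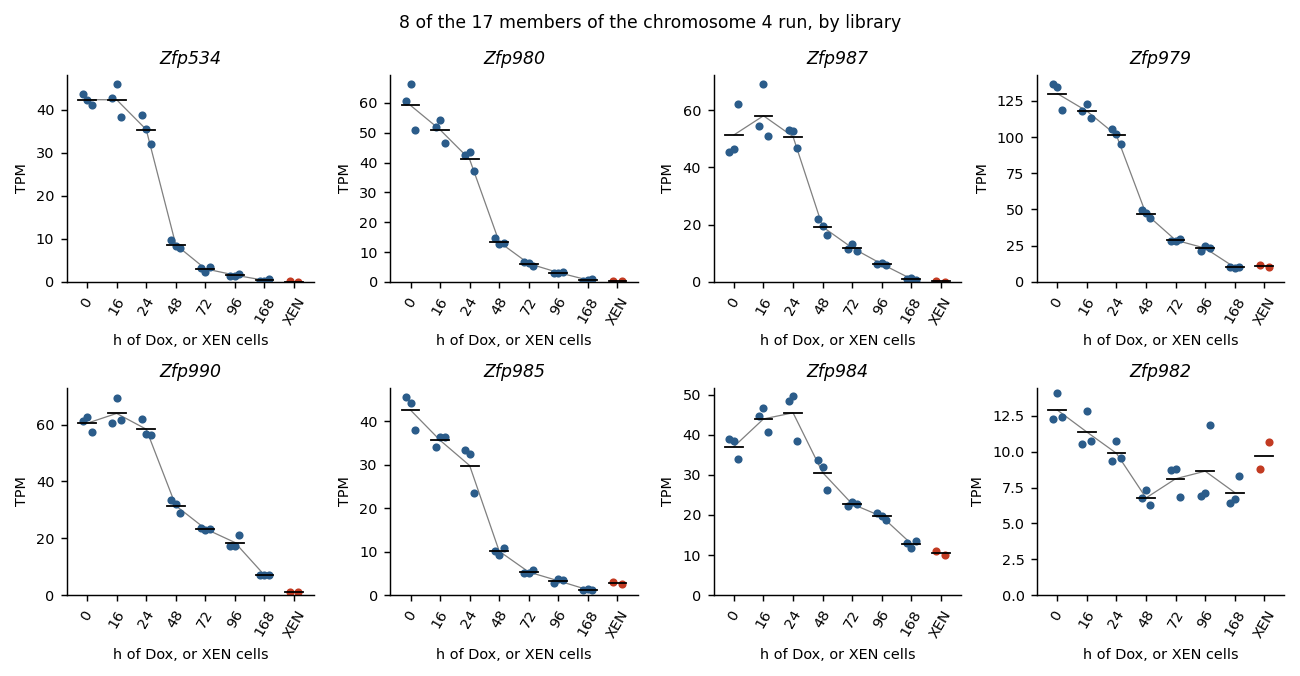
TPM of 8 of the 17 chromosome 4 members in each library of the 7 Dox times (blue) and of XEN cells (red), with the group mean as a black bar; the vertical scale differs between panels. The other 7 panels step down between 24 and 48 h and go on falling to 168 h, and Zfp982 stays between 6.28 and 14.1 TPM.

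Reads of such near copies can be shared out among genes. Of the 100-base stretches in their transcripts, the 17 genes shared between 1.73% (Zfp985) and 71.9% (Zfp993) with transcripts of other genes, with a median of 42.5%, so single levels are uncertain where sharing is high. Of the 3 genes that shared under 10%, Zfp982 was not called and had a difference of -0.60 between 16 and 168 h. The other 2, Zfp985 and Zfp990, shared 1.73% and 3.60% and were called lower. In that order, they went from 35.6 ± 1.24 to 1.22 ± 0.121 TPM and from 63.9 ± 4.86 to 7.03 ± 0.125 TPM (SD, n = 3). The sum over the run does not depend on how reads were divided within it, except through gene length. Sharing was counted against all other genes, so reads shared with genes outside the run could still move the sum. In the order of the 7 Dox times the sum was 678 ± 44.7, 623 ± 44.5, 532 ± 46.4, 227 ± 18.0, 144 ± 1.41, 108 ± 8.20 and 55.0 ± 2.43 TPM (SD, n = 3). In the 2 XEN libraries it was 40.2 and 41.5 TPM. The sum at 168 h was 8.82% of that at 16 h. The other 190 members together went from 3582 ± 196 TPM at 16 h to 2982 ± 127 TPM at 48 h and 3385 ± 78.5 TPM at 168 h. The run thereby passed from 14.8% of all members' transcripts at 16 h to 1.60% at 168 h.

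**Figure D3:**
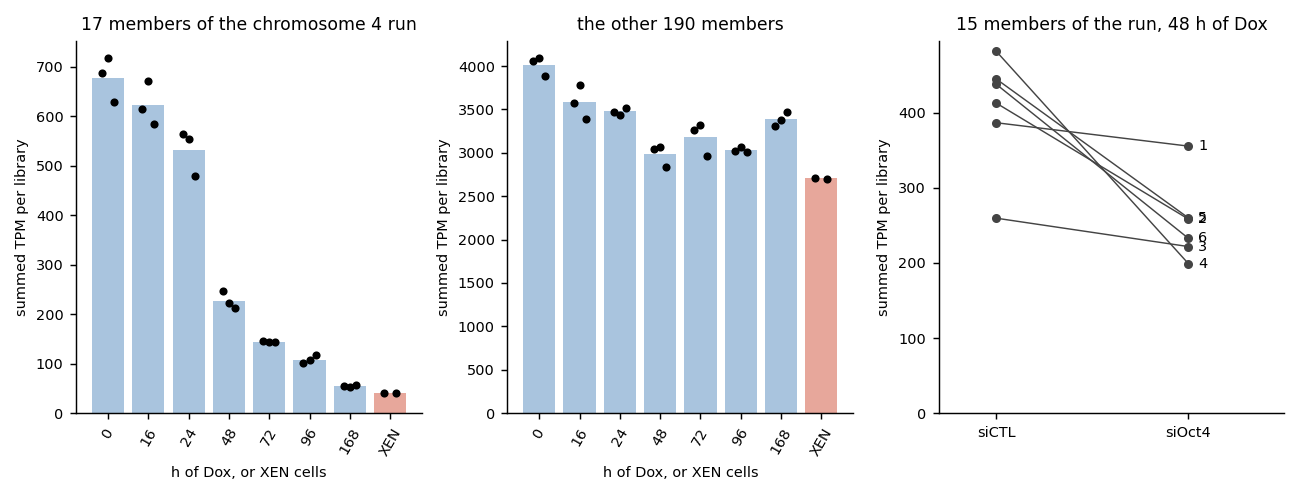
Summed TPM per library over the 17 chromosome 4 members (left) and the other 190 members (middle) by h of Dox and in XEN cells, with bars at the group mean and points for libraries, and over the 15 of the run listed in the siRNA table (right), with lines joining libraries of the same number. The left bars go from 678 to 55.0 TPM between 0 and 168 h, the middle bars stay between 2706 and 4009 TPM, and all 6 lines at the right go down.

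The stretch before the start site is shown for these genes because 8 of the 11 with a RefSeq promoter window (GRCm38.p6) hold the same letters there. The longest stretches were sought as 20-base words found in the windows of most genes, and 4 such words, which merge into a pair of 21-base blocks, were in 8 genes. The sequences run 5′ to 3′ in the direction of transcription with the shared blocks in capitals.
Zfp980, chr4:145670545-145670665, plus strand: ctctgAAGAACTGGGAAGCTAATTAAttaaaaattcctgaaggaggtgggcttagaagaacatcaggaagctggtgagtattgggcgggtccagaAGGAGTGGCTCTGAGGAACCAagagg
Zfp987, chr4:146097150-146097270, plus strand: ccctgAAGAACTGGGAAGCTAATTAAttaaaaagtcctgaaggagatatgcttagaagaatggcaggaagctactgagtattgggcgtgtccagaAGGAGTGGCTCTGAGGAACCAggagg
Zfp600, chr4:146156681-146156801, plus strand: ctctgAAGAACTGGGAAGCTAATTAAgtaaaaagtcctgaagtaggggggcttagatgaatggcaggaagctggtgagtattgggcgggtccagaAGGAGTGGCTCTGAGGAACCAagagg
Zfp988, chr4:147305479-147305599, plus strand: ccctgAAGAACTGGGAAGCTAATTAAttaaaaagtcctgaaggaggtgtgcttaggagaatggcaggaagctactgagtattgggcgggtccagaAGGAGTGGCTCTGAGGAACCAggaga
Zfp982, chr4:147492255-147492375, plus strand: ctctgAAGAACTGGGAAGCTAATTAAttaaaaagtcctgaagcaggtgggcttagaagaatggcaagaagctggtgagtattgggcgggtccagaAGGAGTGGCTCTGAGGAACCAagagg
Zfp985, chr4:147553130-147553250, plus strand: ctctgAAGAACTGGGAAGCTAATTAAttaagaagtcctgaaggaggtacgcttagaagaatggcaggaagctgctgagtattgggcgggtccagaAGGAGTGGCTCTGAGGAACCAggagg
Zfp979, chr4:147642540-147642660, minus strand: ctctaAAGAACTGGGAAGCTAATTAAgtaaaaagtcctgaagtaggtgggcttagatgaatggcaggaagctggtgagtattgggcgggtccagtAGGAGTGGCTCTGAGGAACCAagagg
Zfp534, chr4:147702632-147702748, minus strand: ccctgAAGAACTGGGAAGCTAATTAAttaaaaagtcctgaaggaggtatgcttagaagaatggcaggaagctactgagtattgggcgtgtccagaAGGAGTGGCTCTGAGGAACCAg
The first block began between 112 and 157 bases before the annotated start. Over the 117 positions compared, the 28 pairs of sequences were between 88.9% and 99.1% identical, with a median of 92.3%. Of 32851 windows of 300 bases in the whole table, searched on both strands, 9 (0.0274%) held any of these words: the 8 members shown and Rex2, a zinc finger gene that is no member because of its name. The words were taken from the windows of the 8 members, so the hits in those windows were fixed by that choice. Rex2 went from 20.3 ± 1.90 TPM after 16 h through 4.03 ± 0.530 TPM after 48 h to 0.443 ± 0.178 TPM after 168 h (SD, n = 3); it was singled out after its values could be seen. The windows of Zfp981, Zfp984 and Zfp993 did not hold the words, and the other 6 genes of the run have no window in the table. The letters alone did not mark the size of the fall: among the genes shown are Zfp980 (-5.02) and Zfp982 (-0.60).

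The timing of the loss was read from 2 steps, which share the 48 h libraries with each other and the 16 and 168 h libraries with the contrast above. From 16 to 48 h, 24 members were lower and 2 higher by the same rule, beside 4.67% and 5.5% of all genes tested. These were 11.6% and 0.966% of the members, and the median difference was -0.21, against -0.02 over all genes. Of the 24, 11 were in the chromosome 4 run (median difference -1.72), the largest falls being Zfp534 (-2.17 ± 0.13 SE), Zfp600 (-2.11 ± 0.18 SE) and Zfp978 (-2.10 ± 0.16 SE). From 48 to 168 h, 22 members were lower and 9 higher, beside 9.19% and 12.6% of all genes, and 14 of the 22 were in the run (median difference -2.01). After median-of-ratios rescaling this split was 27 lower and 6 higher. The largest later falls were Zfp987 (-3.33 ± 0.15 SE), Zfp980 (-3.16 ± 0.11 SE) and Zfp534 (-2.83 ± 0.13 SE). In the run, 11 genes were called lower in both steps, and so were 4 other members: Zfp428, Zfp459, Zfp640 and Zfp936, singled out after their values were seen.

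The remaining runs moved less as groups. Of 8 members at chr7:41633203-43618285, 4 were lower at 168 h than at 16 h and none higher (median difference -1.06), among them Zfp936 (34.4 ± 7.76 to 4.399 ± 1.39 TPM) and Zfp819 (5.71 ± 0.522 to 0.463 ± 0.228 TPM; SD, n = 3). Of 7 members at chr2:175918881-178078476, 2 were lower (median difference -0.79). By contrast, the 11 members at chr17:21008903-23599487 had a median difference of 0.12, with 1 lower and 1 higher, and the 7 at chr17:32765496-33631779 had 2 higher, none lower and a median of 0.44. Outside the chromosome 4 run, KRAB-box members numbered 91, of which 15 fell and 4 rose, with a median difference of -0.14. These are 16.5% and 4.40%, beside 15.6% and 20.2% of all genes tested, so that outside the run the share of KRAB-box members that fell is near the background.

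Among proteins with a known part in pluripotency, 3 of 8 members (37.5%) fell between 16 and 168 h and none rose, beside 15.6% and 20.2% of all genes tested (median difference -0.58, against 0.07 over all genes). Zfp57, the KRAB protein that guards methylated imprints, at chr17:37001163-37010635, was at 217, 236 and 211 TPM at 16 h and at 41.3, 44.3 and 47.6 TPM at 168 h (difference -2.29 ± 0.11 SE, limma adjusted p = 5.4e-13). Its level in XEN cells, 43.7 and 39.0 TPM, overlapped that at 168 h. Zfp296, a partner of the KLF4 reprogramming factor, went from 33.1, 33.8 and 26.0 TPM to 4.07, 5.91 and 6.72 TPM (difference -2.30 ± 0.15 SE). Zfp281, a regulator of the exit from naive pluripotency, went from 41.1 ± 3.94 TPM through 20.0 ± 1.80 TPM after 48 h to 19.8 ± 1.08 TPM after 168 h (SD, n = 3), a difference of -1.02 ± 0.08 SE that it had nearly reached by 48 h. The other 5, Zfp143, Zfp207, Zfp217, Zfp462 and Zfp706, lay between -0.95 and 0.37 and were not called. Zfp428, a small protein with 1 matched finger, was outside the lists and went from 70.1, 77.8 and 55.6 TPM to 9.21, 7.09 and 10.2 TPM (difference -2.80 ± 0.17 SE).

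Among KRAB proteins known to act on imprints and retroelements, Zfp57 and Zfp819 fell and the other 5 were not called, again beside 15.6% lower among all genes tested. Zfp445, which shares the imprint role of Zfp57, was at 58.6 TPM at 16 h and 75.8 TPM at 168 h (difference 0.37 ± 0.10 SE). Zfp809, which silences murine leukaemia proviruses, was at 28.5 and 40.7 TPM (difference 0.51 ± 0.13 SE). Zfp568, Zfp932 and Zfp961 had differences of -0.54, -0.51 and -0.45. The list of 7 tested members thus had both signs, with a median of -0.51; Zfp708 was under the 0 h minimum.

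Of the 16 members that rose, 12 had no KRAB-box match. Zfp948, one of the 4 KRAB genes among them, at chr17:21567008-21588699, was at 12.3, 12.7 and 13.6 TPM at 16 h, 28.0, 28.7 and 26.1 TPM at 48 h and 67.1, 66.7 and 63.4 TPM at 168 h. Its difference between 16 and 168 h was 2.27 ± 0.11 SE (limma adjusted p = 1.4e-12), no groups overlapped, and it was, with Zfp395, one of the 2 members called higher at 48 h. Zfp395, which encodes the DNA-binding protein HDBP2, went from 4.46, 4.55 and 5.04 TPM to 24.6, 26.9 and 27.7 TPM (difference 2.27 ± 0.25 SE). Zfp36 (tristetraprolin), which binds AU-rich messenger RNA and speeds its decay, went from 9.49, 10.6 and 15.0 TPM to 41.2, 43.9 and 59.0 TPM (difference 1.96 ± 0.23 SE). Its rise came after 48 h, when it was still at 14.3 ± 1.04 TPM (SD, n = 3).

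Zfp644, a partner of the G9a and GLP histone methyltransferases, was at 18.4, 23.5 and 18.7 TPM at 16 h, 14.5, 14.4 and 10.7 TPM at 48 h and 66.3, 64.9 and 66.8 TPM at 168 h. The step from 48 to 168 h was 2.25 ± 0.13 SE (limma adjusted p = 3.7e-11). Zfp592, which forms a chromatin complex with ZMYND8 and ZFP687, rose by 1.65 ± 0.23 SE between 16 and 168 h. Both belong to the 8 chromatin complex proteins, of which 2 rose and none fell (median difference 0.68), and this share of 25.0% is near the 20.2% of all genes tested that rose. Zfp687, the companion of Zfp592, was at 14.9 and 30.4 TPM and just under the fold minimum (0.97 ± 0.09 SE). Of the 9 RNA and translation proteins, Zfp36 rose, Zfp473 fell from 20.0 ± 2.404 to 8.05 ± 0.328 TPM (SD, n = 3) and the other 7 lay between -0.92 and 0.58; the median was -0.27.

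A dip followed by a rise was called in 2 members. Zfp365, which encodes the centrosomal protein DBZ, was at 9.51, 11.3 and 7.21 TPM at 16 h, 2.60, 2.71 and 2.38 TPM at 48 h and 20.0, 22.5 and 38.2 TPM at 168 h. Its fall to 48 h was -1.52 ± 0.31 SE and its later rise 2.92 ± 0.31 SE (limma adjusted p = 1.1e-07). Zfp423, a cofactor of BMP-activated SMADs, went from 7.95, 8.19 and 5.21 TPM through 1.73, 1.80 and 1.49 TPM to 5.18, 5.75 and 7.40 TPM, with steps of -1.58 ± 0.14 SE and 1.40 ± 0.14 SE. For both genes the 48 h libraries lay under every library of 16 and 168 h. The 10 fibroblast markers, whose source could be feeders, moved beside these late rises: their summed level ranged from 81.2 to 153 TPM at 16 h, from 65.7 to 100 TPM at 48 h, from 134 to 296 TPM at 168 h and from 116 to 121 TPM in XEN cells, and no marker of the 10 stayed under 1 TPM in all 168 h libraries. Their part in the rises was not tested.

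**Figure D4:**
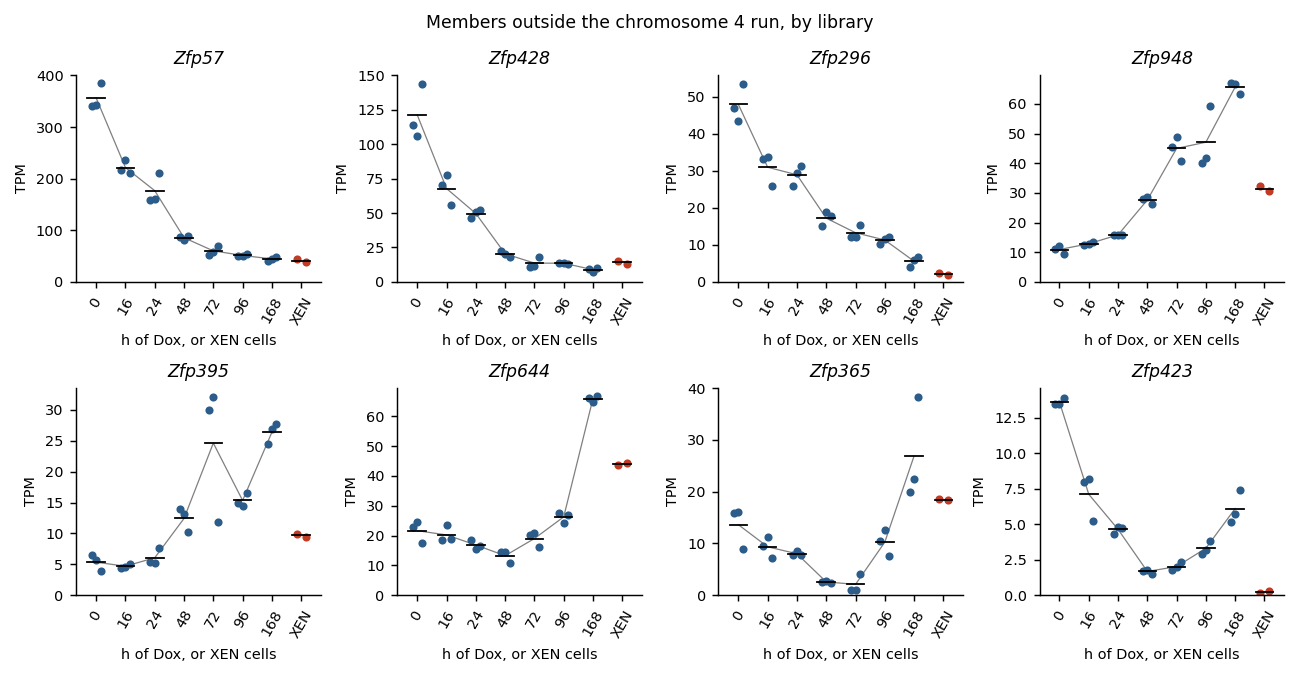
TPM of 8 members outside the chromosome 4 run in each library of the 7 Dox times (blue) and of XEN cells (red), with the group mean as a black bar; the vertical scale differs between panels. Zfp57, Zfp428 and Zfp296 fall, Zfp948, Zfp395 and Zfp644 end higher at 168 h than at 16 h, and Zfp365 and Zfp423 dip to 2.56 and 1.67 TPM at 48 h.

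Of the partners through which KRAB boxes act, Trim28, the corepressor itself, was at 1090, 1114 and 978 TPM at 16 h, 533, 521.5 and 513 TPM at 48 h and 241, 234 and 281 TPM at 168 h. Its difference between 16 and 168 h was -2.07 ± 0.10 SE (limma adjusted p = 1.0e-12). Setdb1 was at 48.5 and 26.9 TPM, a difference of -0.82 ± 0.07 SE that missed the fold minimum. Of the 21 genes of this pathway tested, 3 fell (Trim28, the HP1 gene Cbx1 at -1.47 and the HUSH subunit Tasor at -1.03) and 1 rose, the histone methyltransferase Suv39h1 at 1.30. These are 14.3% and 4.76% of the list, beside 15.6% and 20.2% of all genes tested, so that the share that fell is near the background. The median difference was -0.70, against 0.07 over all genes tested.

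XEN cells were compared with 168 h induced cells to ask how far the members' levels in the 2 endoderm states differ. In XEN cells 21 members were lower and 2 higher, beside 9.17% and 4.73% of all genes tested, and the median difference was -0.33 against -0.14 over all genes. Of the chromosome 4 run, 12 of 17 had XEN libraries that lay under every 168 h library and 3 had them above, and 3 were called lower. Of the 190 members outside the run, 117 had XEN libraries under every 168 h library and 21 had them above. Groups without overlap were thus common among members in general. The 8 with a mean under 1 TPM at 168 h could not be called lower, since a fall to 0 would miss the fold minimum on the log2(TPM + 1) scale, so their lack of a call says nothing of a difference. The 3 called were Zfp990, at 6.93, 6.99 and 7.17 TPM at 168 h and 1.04 and 1.15 TPM in XEN cells (difference -1.94 ± 0.09 SE), Zfp991 (-1.61 ± 0.17 SE) and Zfp993 (-1.65 ± 0.24 SE). Of the 17, 10 had a mean under 1 TPM in XEN cells. Zfp423 had the largest difference, from 6.11 ± 1.15 TPM at 168 h (SD, n = 3) to 0.172 and 0.293 TPM in XEN cells (-2.52 ± 0.16 SE, limma adjusted p = 3.0e-10). Zfp217, a DNA-binding partner of the CoREST complex, was at 12.4, 14.9 and 14.8 TPM at 168 h and 4.60 and 5.01 TPM in XEN cells (-1.37 ± 0.16 SE). Zfp747 (-1.59) and Zfp738 (-1.40) were the other named falls. Of the genes that had risen to 168 h, Zfp948 (-1.04), Zfp395 (-1.36), Zfp36 (-1.14) and Zfp592 (-1.09) were lower again in XEN cells. The 2 higher members lie in the chromosome 2 run: Zfp970 was at 8.24, 9.63 and 7.36 TPM at 168 h and 23.8 and 21.5 TPM in XEN cells (1.33 ± 0.15 SE), and Zfp966 at 2.79 ± 0.0668 TPM (SD, n = 3) and 6.75 and 7.38 TPM (1.09 ± 0.16 SE). For Zfp966, 79.9% of 100-base stretches are shared with other transcripts, so its own level is uncertain. In each of these comparisons the libraries of called members did not overlap between groups.

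The knockdown asks what a lower Oct4 level does to the members during the first 48 h of induction. Pou5f1, which encodes OCT4, ranged from 782 to 1194 TPM in the 6 siCTL libraries and from 282 to 387 TPM in the 6 siOct4 libraries. The siRNA table lists 6275 rows of genes that the study had called responsive to GATA6, so its 85 members are not a random share of the 207. A call needed an adjusted p under 0.05 and a difference of at least 0.5 on the log2(TPM + 1) scale. By this rule 3 of the 85 were lower with siOct4 and none higher, beside 1.72% lower and 0.942% higher among all 6264 genes tested; 14 had an unadjusted p under 0.05, all of them lower. The median difference was -0.23 over the members and -0.12 over all genes, and after median-of-ratios rescaling these were -0.10 and 0.01.

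The 3 called members all belong to the chromosome 4 run. Zfp534 ranged from 12.7 to 20.2 TPM in siCTL and from 4.59 to 11.3 TPM in siOct4 libraries (means 15.9 ± 3.10 and 8.19 ± 2.67 TPM, SD, n = 6; difference -0.91 ± 0.22 SE, limma adjusted p = 0.043). Zfp987 was at 40.7 ± 5.76 and 22.1 ± 6.70 TPM (difference -0.89 ± 0.20 SE, limma adjusted p = 0.027). Zfp988 was at 18.2 ± 3.56 and 9.88 ± 2.11 TPM (difference -0.82 ± 0.19 SE, limma adjusted p = 0.035). In all 3 genes the 2 groups kept apart, and siOct4 was lower in 6 of 6 numbered pairs. Blocking on the replicate number gave 8 calls, the 3 above with Zfp978, Zfp979, Zfp980, Zfp985 and Zfp990, all in the run. Over all 6264 genes tested, the blocked fit called 385 lower and 152 higher. All 15 members of the run in this table had a negative difference, from -0.91 to -0.42 with a median of -0.59, and after rescaling the median was -0.44. None of the 70 other members was called in either fit. In 6 of 6 pairs, 8 of the 15 were lower, as were 13.6% of all genes tested. Summed markers of other cell states ranged differently in these groups, given here for siCTL and then siOct4 libraries. The 5 trophectoderm markers in this table summed to 13.6 to 45.0 and 21.9 to 130 TPM. The 12 PrE markers summed to 5169 to 11521 and 3863 to 7313 TPM. The 8 ES markers summed to 936.5 to 1546 and 358 to 629 TPM. This ES sum includes Pou5f1, the siRNA target itself, with means of 957 and 331 TPM. No other ES marker was called, with differences from -0.82 (Esrrb) to 0.09 (Nanog). None of the 5 trophectoderm markers stayed under 1 TPM in all libraries of either group, and none was called. Krt7 (1.62 ± 0.48 SE), Hand1 (1.54 ± 0.52 SE), Tfap2c (1.11 ± 0.49 SE) and Cdx2 (0.65 ± 0.25 SE) had positive differences. Eomes went the other way (-0.54 ± 0.26 SE). The part of these markers in the falls of the run was not tested.

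The number of calls in the fit without the block changed with the libraries kept. Leaving out libraries was not tried with the block. Without siCTL library 3, in which the summed level of the 15 genes was 260 TPM beside 387 to 482 TPM in the other 5, the count was 8, and it was 0 without siCTL library 4, 5 or 6 or without siOct4 library 3 or 4, and 1 without siCTL library 2 or siOct4 library 5 or 6. Libraries numbered 1 and 2, 3 and 4, or 5 and 6 correlated more closely (r from 0.938 to 0.990) than others of a group (0.929 to 0.968); with each such couple averaged, an alternative chosen after seeing the data, no member was called by limma, 8 had an unadjusted p under 0.05, and no gene of the whole table was called. With the replicate block, these averaged couples gave 138 lower and 65 higher calls over the whole table and none among the members, of which 16 had an unadjusted p under 0.05. The summed level of the 15 genes was lower with siOct4 in each of the 6 pairs, by 0.12, 0.68, 0.23, 1.27, 0.77 and 0.91 on the log2 scale.

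**Figure D5:**
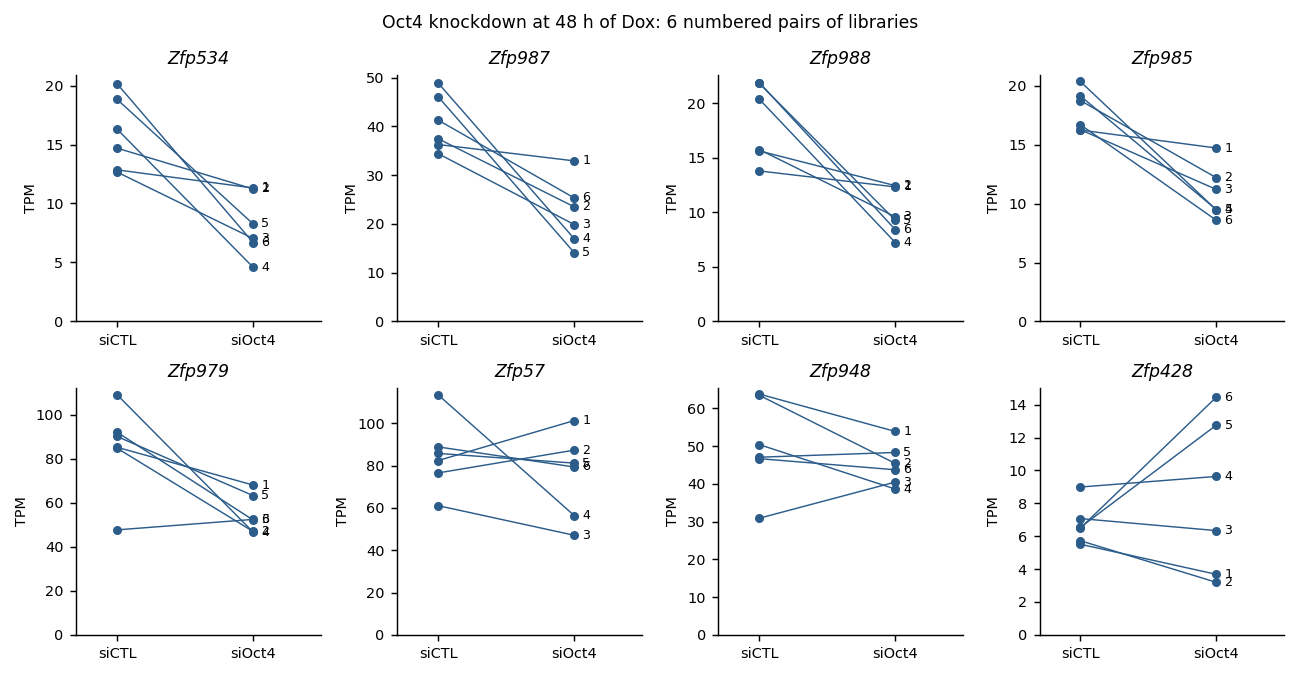
TPM of 8 members in the siCTL and siOct4 libraries at 48 h of Dox, with lines joining libraries of the same number, printed at the right. All 6 lines go down for Zfp534, Zfp987, Zfp988 and Zfp985 and 5 of 6 for Zfp979, whereas Zfp57, Zfp948 and Zfp428 have lines in both directions.

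The 70 members outside the run had knockdown differences from -0.72 (Zfp516, lower in 6 of 6 pairs) to 0.37 (Zfp365). Their median was -0.17, with 57 below 0 and 13 above, and their range overlapped that of the run. Zfp57, Zfp948 and Zfp428, named above for their changes along the induction, had small differences. Zfp57 had means of 84.7 ± 17.2 and 75.5 ± 20.1 TPM in siCTL and siOct4 (SD, n = 6 each; difference -0.19 ± 0.20 SE), Zfp948 at 50.4 ± 12.3 and 45.1 ± 5.53 TPM (-0.13 ± 0.18 SE) and Zfp428 at 6.72 ± 1.25 and 8.35 ± 4.71 TPM (0.12 ± 0.32 SE). None was called, and for each the libraries of the groups overlapped.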

How the data were processed

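Poly(A) RNA of 35 libraries was sequenced with a stranded kit. Per the labels and the methods, the authors made the deposited TPM values by aligning reads to mm10 with STAR and quantifying genes with RSEM. Tool versions are not given in the sources used here. Per the methods, outliers found by principal component analysis were left out before counts were turned into TPM values. What these outliers were is not stated, and depth is unknown. The siRNA table holds only genes the authors called responsive to GATA6; their mean and class columns were not used. Where a symbol had several rows, the one with the highest mean was kept.

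TPM values were tested as log2(TPM + 1) with limma 3.58.1 (R 4.3.3; trend and robust settings, Benjamini-Hochberg) on genes that averaged 1 TPM or more in any group; the 23 induction libraries shared 1 fit, and the 12 siRNA libraries another. Members and lists were chosen with earlier results of these data known. Text names the 6 members highest at 0 h, the 3 on each side of the minimum, the largest called changes without overlap (6 each way for 168 h against 16 h and XEN against 168 h, 3 each way for both steps), members called with siOct4, members of 4 role lists, and called genes of the KRAB corepressor list with Trim28 and Setdb1. The study describes the induction replicates and the knockdowns as independent. On simulated data, with 200 genes changed by 2 on the log2 scale, 99% were recovered among 15057 genes (168 h against 16 h) and 97% among 6264 (siRNA). The simulated noise was independent between libraries, without the pairing given below. Members' siOct4 differences lay between -0.91 and 0.37, so the 97% does not give the sensitivity for them. Replicate numbers pair the siRNA libraries: deviations of same-numbered siCTL and siOct4 libraries correlated at 0.236 to 0.707 (mean 0.328; other combinations -0.064).

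KRAB boxes and C2H2 fingers were counted by pattern on translated GENCODE M21 coding transcripts, used in place of the RefSeq proteins planned. Promoter windows (250 bases before to 50 after the start, 167 members matched by symbol) are RefSeq's. Alternatives tried were median-of-ratios rescaling, a pseudocount of 0.1, other filters, no fold minimum, the replicate block, fits on the compared groups alone and leaving out each library. Python 3.11.15 with pandas 2.3.3 and matplotlib 3.10.9 made tables and plots.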

Additional observations from a re-analysis of the deposited data

Results flagged for a closer look

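In 44 sets of 6 siRNA libraries (members named in the text and the summed chromosome 4 run, in siCTL or siOct4), 6 held a library whose gap to its neighbour took more of the range than Dixon's 95% critical value; chance alone gives about 2.2 such sets. Groups of 3 libraries were not screened. Of the 6, 5 concerned siCTL library 3. There Zfp36 was at 3.68 TPM, beside 9.28 to 15.3 TPM in the other siCTL libraries, Zfp462 at 3.67 TPM beside 14.3 to 26.4 TPM, Zfp979 at 47.7 TPM beside 84.8 to 109 TPM and Zfp980 at 10.1 TPM beside 21.6 to 27.5 TPM. The summed level of the 15 chromosome 4 members was 260 TPM in this library, beside 387 to 482 TPM. In siOct4 library 2, Zfp644 was at 18.7 TPM, beside 27.3 to 30.9 TPM in the other siOct4 libraries.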

How the results depend on the processing

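The counts of members called between 168 and 16 h, 48 and 16 h, 168 and 48 h, and XEN and 168 h (56, 26, 31 and 23) stayed within 1.5 times of these values under each alternative that was run, except without a fold minimum (145, 97, 128 and 113) and, for XEN cells, with a pseudocount of 0.1 (35). The 16 falls in the chromosome 4 run were 15 or 16 when any 1 library was left out. Without a fold minimum, KRAB-box members outside the run called lower were 37 rather than 15 and members without a match called higher 44 rather than 12; the latter were 7 after rescaling. For siOct4 against siCTL, the 3 calls were 1 after rescaling, 8 with the replicate block, 8 with block and rescaling together, 0 with consecutive libraries averaged (also with the block, where 16 had an unadjusted p under 0.05), and 0 to 8 when a library was left out. The cause of these shifts was not tested. Over all genes tested, 154 were called lower and 144 higher after rescaling, and 385 lower and 152 higher with the block. Deviations of same-numbered induction libraries correlated weakly over all genes (from -0.076 to 0.191), and blocking on the numbers gave counts of 57, 27, 31 and 25. Single genes could still follow the numbers. Over the 7 Dox times the fibroblast marker Thy1 was at 13.4 to 34.9 TPM in libraries numbered 3 and at 1.20 to 4.75 TPM in the others. Col1a1 went the other way at 96 h, with 21.6 TPM in library 3 beside 47.9 and 46.7 TPM. What same-numbered libraries share was not tested. Of 458 alternative values for the 34 named changes, 427 kept their call, and the 31 that lost it were of Zfp534, Zfp987 and Zfp988 with siOct4. None reversed. The named induction changes were picked as the largest called ones without overlap, so this tally does not speak for the other members. TPM values hold no depth, so what depth limits cannot be given.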
